A study of Mus musculus with 12 samples.

Results

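The transcripts described here encode the machinery that copies DNA and divides the cell. They number 46 genes, chosen by name: 22 replication genes, 3 genes of S-phase entry and checkpoint (Ccne1, Ccne2 and Chek1) and 21 mitosis genes. They were set against the 13650 genes tested, of 18193 genes that had a probe set of their own on the array. Each member was read from the probe set annotated to it alone that had the highest mean signal over the 12 arrays. Ccnb1, the B1 cyclin of mitosis, had no such probe set and was not measured, which left 45 members, 20 of them mitotic. All 45 reached a signal of 20 on at least 1 array, which was the filter, and 41 reached it on every array.

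The study compared mouse neurospheres, balls of cultured neural stem cells and their progeny, of several origins with other cultures. Fibroblast-derived neurospheres were on 4 arrays. The adult-derived pair was grown with EGF and cAMP (replicate 1) or with the cytokine LIF (replicate 2), and the embryonic-derived pair with LIF (replicate 3) or with LIF and cAMP (replicate 4). The pluripotent cells were the iPS line 38C2 and the ES line EB3, on 1 array each. Primary and secondary neurospheres made from either line had 1 array per line and stage. The other arrays held neurospheres from the embryonic day 14 ganglionic eminence (GE), where forebrain neurons are born, and adult skin fibroblasts, on 1 array each. The mice were C57BL/6 except for the iPS and ES cells, and neurospheres were cultured in a medium named MHM. The series title speaks of direct induction, but the labels name no inducing factor and do not say whether spheres were pooled or how often they had been passaged. No group has more than 2 arrays, the arrays of a pair differ in line or in medium, and no label calls them separate cultures. A p-value here therefore covers the spread among these arrays alone.

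The labels were set against lists of 8 cell type markers each. The summed signal of the neural stem cell markers was 1071 to 3155 on the fibroblast-derived arrays, 3592 and 3720.5 in the pluripotent cells, 9874 to 14409.7 on the primary and secondary arrays, 17340.3 in GE neurospheres and 78.8 in fibroblasts. Of these 8 markers 7, 8, 7 and 6 were at 20 or more on fibroblast-derived arrays 1 to 4, against 5 and 4 in iPS and ES cells. Of the pluripotent sum Sox2, which both cell types express, made up 3352.6 and 3417.7. Fabp7, a marker of neural progenitors, read 411, 517.5, 79.8 and 48.1 on fibroblast-derived arrays 1 to 4 and 16.9 and 1.20 in iPS and ES cells. Nes, Olig2 and Prom1 were also higher on all 4 than in iPS and ES cells. Sox2, Slc1a3 and Pax6 were lower on all 4, Slc1a3 at 15, 31.7, 22.3 and 28.1 against 62.9 and 56.5. Hes5 read 59.7, 31.1, 0.7 and 1.9 against 1.6 and 5. The fibroblast-derived arrays also carried pluripotency markers, at summed signals of 2868 to 12920.1 with 7 or 8 of 8 at 20 or more, against 20840.7 and 21812 in pluripotent cells. The fibroblast markers summed to 655 to 5476 on the fibroblast-derived arrays, against 38348 in adult fibroblasts. Between 40.5% and 49.1% of the 45101 probe sets reached a signal of 20 on an array.

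Before S phase, the licensing factors Cdc6 and Cdt1 load the Mcm2 to Mcm7 helicase at origins, and geminin (Gmnn) then blocks further loading. The clamp Pcna, its loader Rfc and the DNA polymerases elongate the strands, while ribonucleotide reductase (Rrm1, Rrm2) and thymidylate synthase (Tyms) supply nucleotides. In mitosis the kinase Cdk1 with its cyclins, the Aurora and Plk1 kinases, the spindle checkpoint (Bub1, Bub1b, Mad2l1, Ttk) and the kinetochore and spindle proteins separate the chromosomes, and Cdc20 starts the exit. Transcription of replication genes is known to be set largely through E2F sites near the start, and that of mitosis genes through a cell cycle homology region (CHR) beside CCAAT boxes, which are bound by NF-Y. Pluripotent cells are known for a short cell cycle with little time spent in G1.

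Promoter stretches of 6 members are shown because they hold these letters upstream of the start of the gene, and they were picked after the matches were seen. They are RefSeq sequence of the build GRCm38.p6, given 5′ to 3′ on the strand of the gene, and end at the base before the start. Capitals mark any match on either strand to the E2F letters TTGGCGC or their variants with the spelling TTGCCGC or the spelling TTCGCGC or the spelling TTCCCGC, to the CHR letters TTTGAA or the spelling TTCGAA, or to the box CCAAT. The replication members are Mcm5 (chr8:75109339-75109508, plus strand), Mcm6 (chr1:128359706-128359825, minus strand) and Rrm1 (chr7:102441595-102441694, plus strand). The mitosis members are Cdk1 (chr10:69352913-69353132, minus strand), Cdc20 (chr4:118437344-118437443, minus strand) and Top2a (chr11:99024190-99024339, minus strand).
Mcm5: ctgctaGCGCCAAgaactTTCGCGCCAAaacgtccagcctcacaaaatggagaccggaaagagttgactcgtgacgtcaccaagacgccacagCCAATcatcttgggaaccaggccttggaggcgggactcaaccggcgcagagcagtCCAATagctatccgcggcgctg
Mcm6: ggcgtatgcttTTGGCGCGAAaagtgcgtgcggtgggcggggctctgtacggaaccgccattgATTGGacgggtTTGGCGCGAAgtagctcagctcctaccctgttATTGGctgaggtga
Rrm1: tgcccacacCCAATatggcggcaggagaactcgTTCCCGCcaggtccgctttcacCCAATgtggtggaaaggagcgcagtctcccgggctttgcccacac
Cdk1: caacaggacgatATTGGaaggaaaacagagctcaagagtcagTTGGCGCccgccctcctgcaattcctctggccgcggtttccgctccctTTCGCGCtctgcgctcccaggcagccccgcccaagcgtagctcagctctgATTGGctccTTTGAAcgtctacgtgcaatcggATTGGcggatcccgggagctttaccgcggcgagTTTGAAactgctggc
Cdc20: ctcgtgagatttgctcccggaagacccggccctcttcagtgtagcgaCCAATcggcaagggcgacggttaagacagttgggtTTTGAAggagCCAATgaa
Top2a: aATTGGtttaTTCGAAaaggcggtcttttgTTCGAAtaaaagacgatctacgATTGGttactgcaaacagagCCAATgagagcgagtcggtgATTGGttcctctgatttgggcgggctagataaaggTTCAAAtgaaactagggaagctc

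Adjoining E2F matches in Mcm5 and Mcm6 overlap each other. Cdk1 holds E2F letters farther upstream and CHR letters nearer the start, with CCAAT on both sides of the E2F letters. Over whole windows of 300 bases, 250 before the start and 50 from it on, 38 members had a window, 39 windows in all. E2F letters were in 14 of 19 replication windows and in 3 of 18 mitosis windows, against 9.57% of the 32851 windows of all genes. CHR letters were in 3 of 19 replication windows and in 13 of 18 mitosis windows, against 19.2% of all windows. CCAAT was in 13 of 19 replication and 14 of 18 mitosis windows, against 37.4% of all. CHR letters together with CCAAT were in 12 of 18 mitosis windows and in 3 of 19 replication windows, against 7.52% of all. In 3 member windows E2F and CCAAT letters overlapped. The match is of letters only and was not compared with the array values.

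Across the 12 arrays the members ran together, as the map of members by array shows. The pluripotent cells held the highest signal of 41 of 45 members, 24 of them on the iPS and 17 on the ES array. The lowest signal of 36 of 45 members was on the GE array and that of the other 9 on the fibroblast array. Counts of highest and lowest arrays over all genes are not given here. With each gene centred on the mean of its 7 group means, the mean over the 45 members was 1.61 and 1.62 log2 units on the iPS and ES arrays. It was 0.18 on the iPS-derived and 0.98 on the ES-derived primary array, and 0.19 on the iPS-derived and -0.20 on the ES-derived secondary array. Fibroblast-derived neurospheres were at 0.78 and 0.61 for adult-derived replicates 1 and 2 and at 0.44 and 0.37 for embryonic-derived replicates 3 and 4. GE neurospheres were at -2.02 and adult fibroblasts at -1.27. In these bulk cultures fewer dividing cells and less of these RNAs per cell cannot be told apart.

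**Figure D1:**
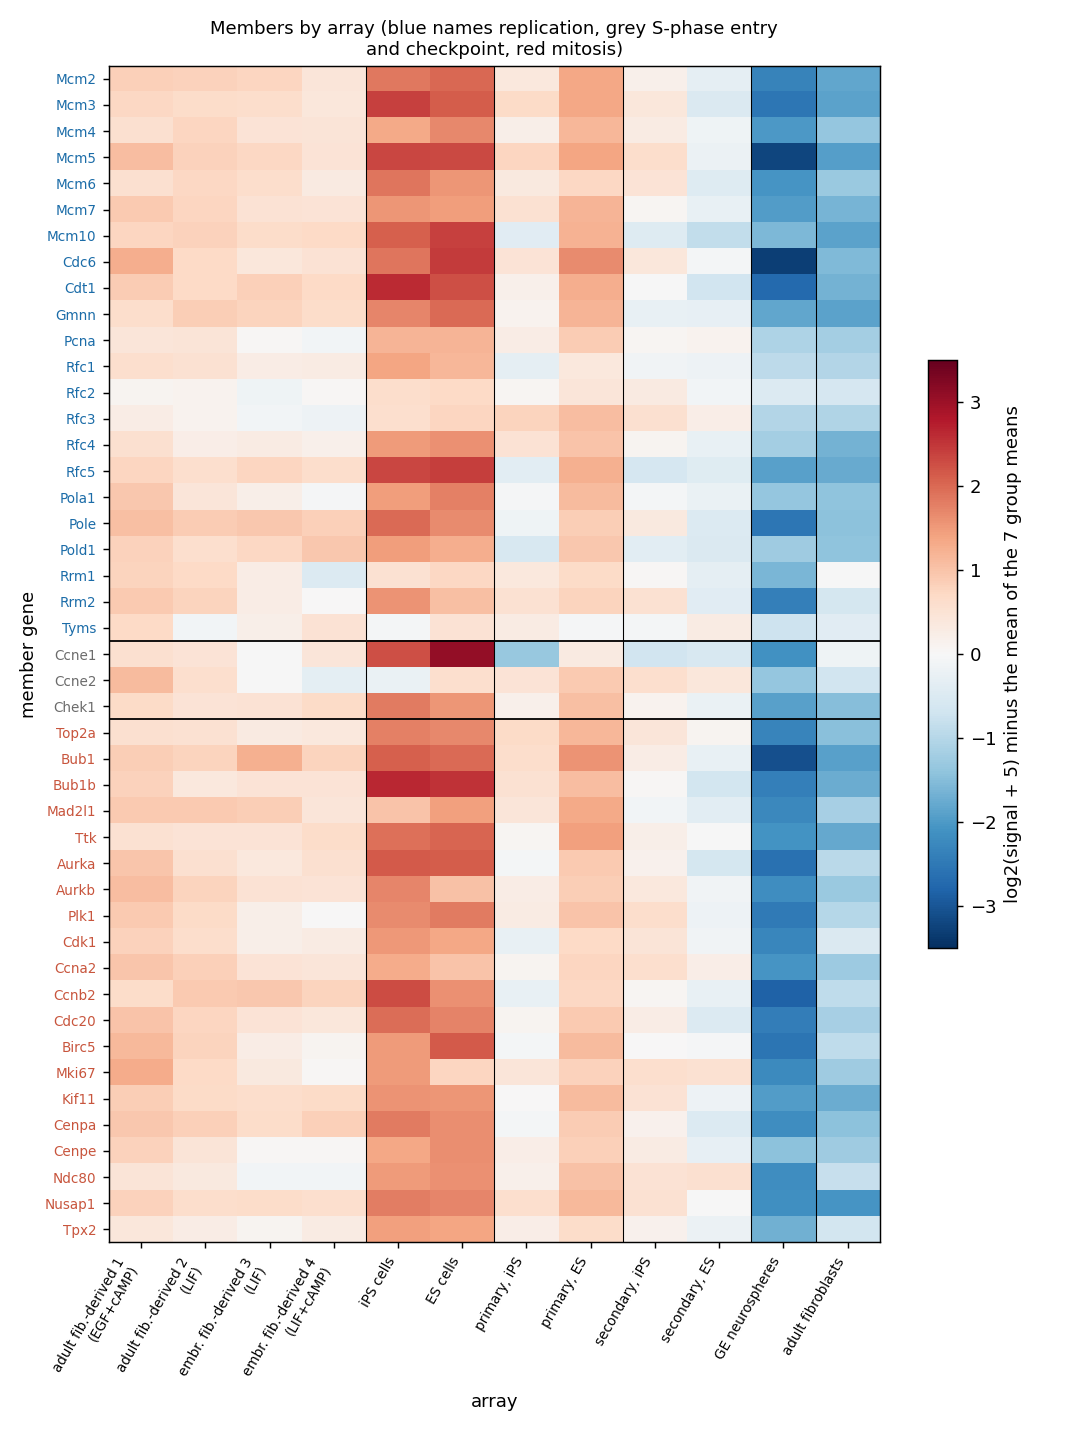
Map of 45 members (rows) on 12 arrays (columns), with the colour giving log2(signal + 5) minus the mean of the 7 group means. The iPS and ES columns are the reddest for most rows and the GE and fibroblast columns the bluest, while Rrm1, Tyms, Ccne1 and Ccne2 depart from the common pattern.

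Fibroblast-derived neurospheres had more of nearly all of these transcripts than adult fibroblasts. Of 45 members, 38 rose and none fell at an adjusted p under 0.05 (limma, Benjamini-Hochberg over all genes), where 23.2% of all genes were called in either direction and 15.0% rose. The 38 were 19 of 22 replication members, 18 of 20 mitosis members and 1 of 3 of the S-phase genes. The median difference was 2.07 log2 units for replication and 1.88 for mitosis members, against 0.22 for all genes. The adult fibroblasts are 1 array, assumed to vary like the groups of 2. No array held embryonic fibroblasts, so for the embryonic-derived pair this is not a comparison with fibroblasts of their source.

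Mcm5, a helicase subunit, had signals of 1333.6 and 1085 in adult-derived and 1026 and 865 in embryonic-derived neurospheres, against 158.6 in adult fibroblasts. All 4 arrays were above the fibroblasts, a log2 difference of 2.71 (SE 0.33, limma adjusted p = 0.00176). Gmnn, the licensing inhibitor, had 511 and 609.9 in adult-derived and 575 and 526 in embryonic-derived neurospheres, against 87 in fibroblasts. The 4 arrays lay close together, and the difference was 2.60 (SE 0.36, limma adjusted p = 0.00243). Among the mitosis members Bub1, a checkpoint kinase, differed most: 487 and 462 in adult-derived and 638.8 and 464 in embryonic-derived neurospheres, against 68 in fibroblasts. That is a difference of 2.81 (SE 0.37, limma adjusted p = 0.00215), and no fibroblast-derived array came near the fibroblast level. Nusap1, a spindle protein, followed at 2.74 (SE 0.28, adjusted p = 0.000924, limma). Smaller called differences were those of Rrm2 (1.12, SE 0.34) and of Tpx2, a spindle assembly factor (0.92, SE 0.26). The Rrm2 call was lost in 9 of 17 other settings, with limma adjusted p from 0.00769 to 0.217. The Tpx2 call was lost in 8 of 17, with limma adjusted p from 0.0184 to 0.267.

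The 7 members not called against fibroblasts were Rfc2, Rrm1, Tyms, Ccne1, Ccne2, Cdk1 and Ndc80. Rrm1, the large subunit of ribonucleotide reductase, read 1017 and 952 in adult-derived and 704 and 419.7 in embryonic-derived neurospheres, against 580.5 in fibroblasts. The fibroblast value lay within the range of the 4 arrays, and the difference was 0.33 (SE 0.30, limma adjusted p = 0.46). Cdk1, the mitotic kinase, was above the fibroblast value of 374 on all 4 arrays, at 924 and 818 in adult-derived and 604 and 649 in embryonic-derived neurospheres. Its difference of 0.97 (SE 0.35) missed the threshold (limma adjusted p = 0.0788). Tyms was dim on every array, from 6.3 to 25.1, so its differences say little.

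**Figure D2:**
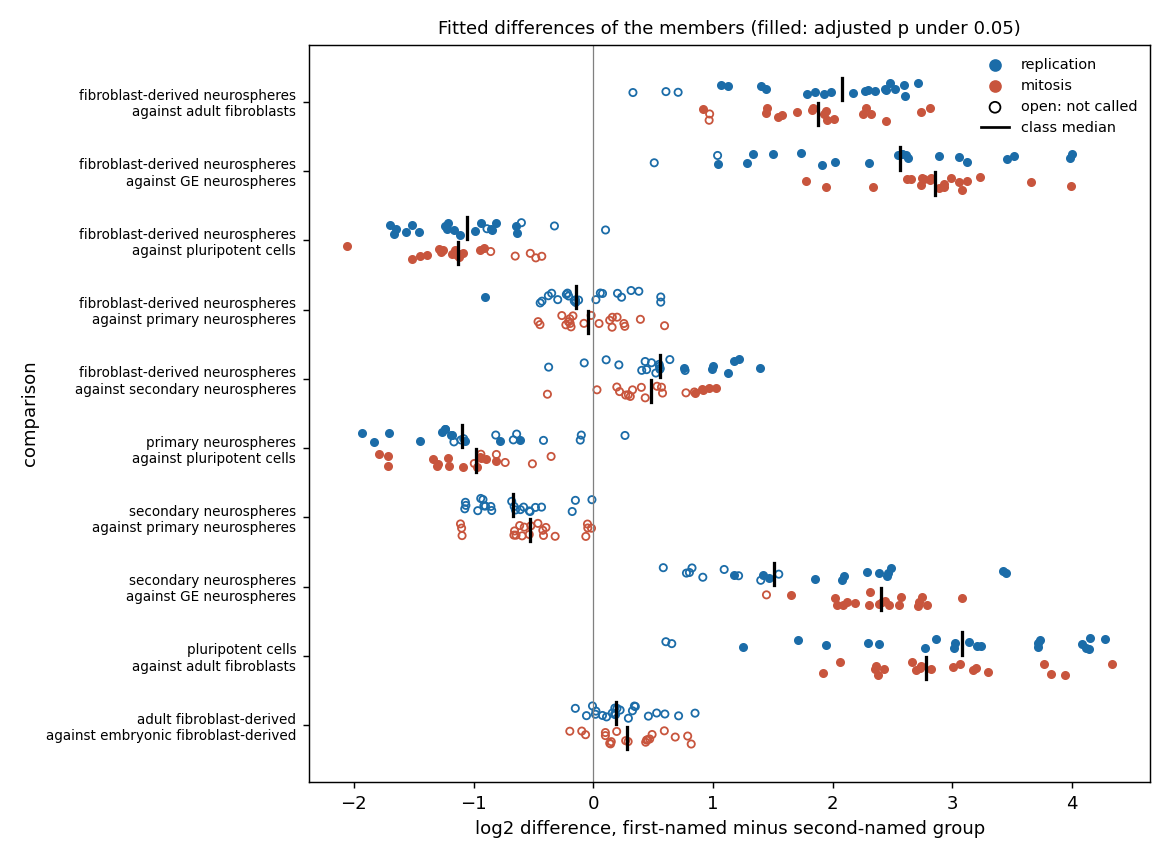
Fitted log2 difference of each replication and mitosis member (points; filled where the limma adjusted p was under 0.05) in 10 comparisons, first-named minus second-named group, with the class median as a bar. The classes overlap in most comparisons, and the bars stand farthest apart for secondary against GE neurospheres, at 2.40 for mitosis and 1.51 for replication members.

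Fibroblast-derived neurospheres also had more of these transcripts than GE neurospheres. In them 43 of 45 members rose and none fell, where 28.4% of all genes were called and 15.6% rose. The exceptions were Rfc2 and Tyms. The median difference was 2.85 for mitosis and 2.56 for replication members, against 0.07 for all genes. Cdc6, the helicase loader, read 194 and 129 in adult-derived and 104 and 112 in embryonic-derived neurospheres, against 3.5 on the GE array. The GE signal is below the filter of 20, so the size of the fitted difference depends on the added 5, and the limma adjusted p was 0.000687. Ccnb2, a mitotic cyclin, had 413 and 499 in adult-derived and 516 and 457 in embryonic-derived neurospheres, against 32.6 in GE neurospheres. Its 4 arrays were all far above the GE value, a difference of 3.66 (SE 0.40, limma adjusted p = 0.00052). Bub1 differed by 3.99 (SE 0.37, limma adjusted p = 0.000297), from a GE signal of 27.3.

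Secondary neurospheres, made from iPS and ES cells, also had more of these transcripts than GE neurospheres. Of 45 members 34 rose and none fell, where 3.89% of all genes were called and 2.40% rose. Among the 34, Cenpa and Mcm3 had the opposite sign on another probe set. The rise took in 19 of 20 mitosis members, but 13 of 22 replication members. Mki67, a marker of cycling cells, read 659 and 639.6 on the iPS- and ES-derived secondary arrays, against 89.6 in GE neurospheres. Both were high, and the difference was 2.79 (SE 0.37, limma adjusted p = 0.0104). Top2a, the topoisomerase that untangles chromosomes, read 1016 and 807, against 149 in GE neurospheres, a difference of 2.57 (SE 0.25, limma adjusted p = 0.00361). Replication members that were not called included Pola1, Pold1, Mcm10, Gmnn and 4 subunits of the clamp loader, Rfc1, Rfc2, Rfc4 and Rfc5. The count was 10 without the iPS-derived secondary array and 23 without the ES-derived one. A fit of these 3 arrays alone, with 1 residual degree of freedom, called none of them.

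The array of GE neurospheres also stood apart in the balance of the classes. There the centred class mean was -2.27 for mitosis and -1.82 for replication members, a gap of -0.45. On the other 11 arrays the gap between the class means was between -0.02 and 0.19, and its pooled SD over the 5 groups with 2 arrays was 0.0498. GE neurospheres have 1 array, so these gaps are descriptions without a test. The gap between class medians was 0.89 for secondary against GE neurospheres and 0.29 for fibroblast-derived against GE neurospheres, which share the GE array. It was between -0.30 and 0.14 in the other 8 comparisons.

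**Figure D3:**
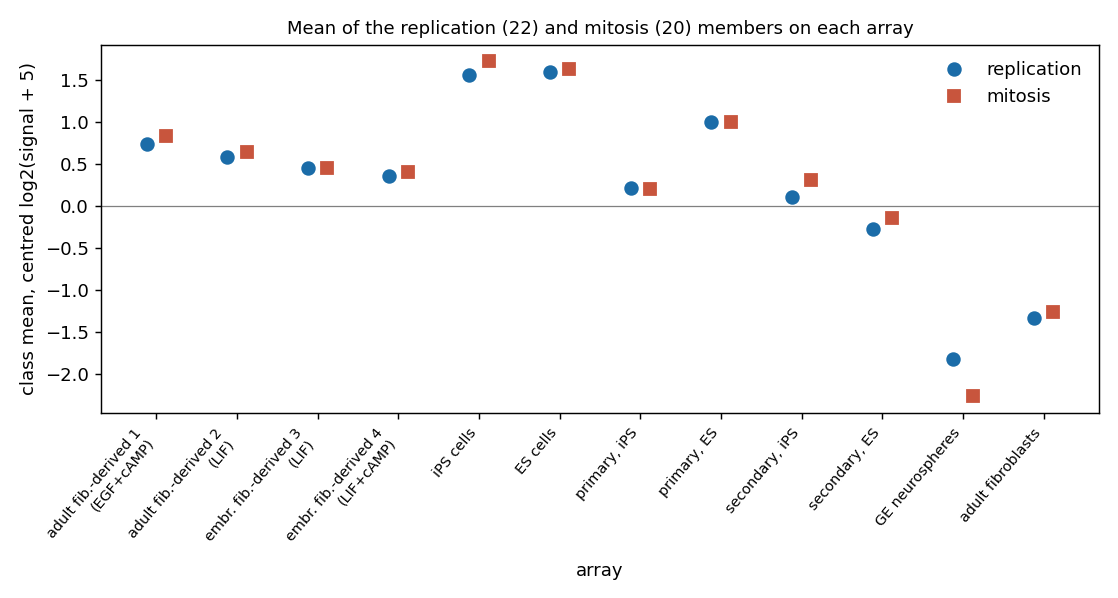
Mean centred log2(signal + 5) of the 22 replication members (circles) and 20 mitosis members (squares) on each of the 12 arrays. The symbols lie close together on every array except that of the GE neurospheres, where mitosis is lower, at -2.27 against -1.82.

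GE neurospheres and adult fibroblasts, the arrays with the lowest levels, differed by class. All 20 mitosis members were lower in GE neurospheres than in fibroblasts, with a median difference of -1.01 log2 units. Of 22 replication members 13 were lower and 9 higher, with a median of -0.32. The 9 were Gmnn, Mcm10, Pcna, Pola1, Pold1 and the clamp loader subunits Rfc1 to Rfc4, of which Rfc4 differed most, with 119 in GE neurospheres against 83.6 in fibroblasts. On the other side Rrm2 read 235.5 in GE neurospheres against 813 in fibroblasts, Cdk1 105.5 against 374 and Ccnb2 32.6 against 141. With 1 array each, these differences have no replicate check. No count over all genes stands beside them, so a general difference between the GE and fibroblast arrays is not set apart. The GE array had the highest sums of oligodendrocyte markers, 13811 with 7 of the 8 listed genes measured, against 1271 and 2202 in secondary neurospheres and 157 to 322 elsewhere. Its astrocyte markers summed to 18605, against 7658 and 10447 in secondary neurospheres. The part of these cells in the low division transcripts was not tested.

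**Figure D4:**
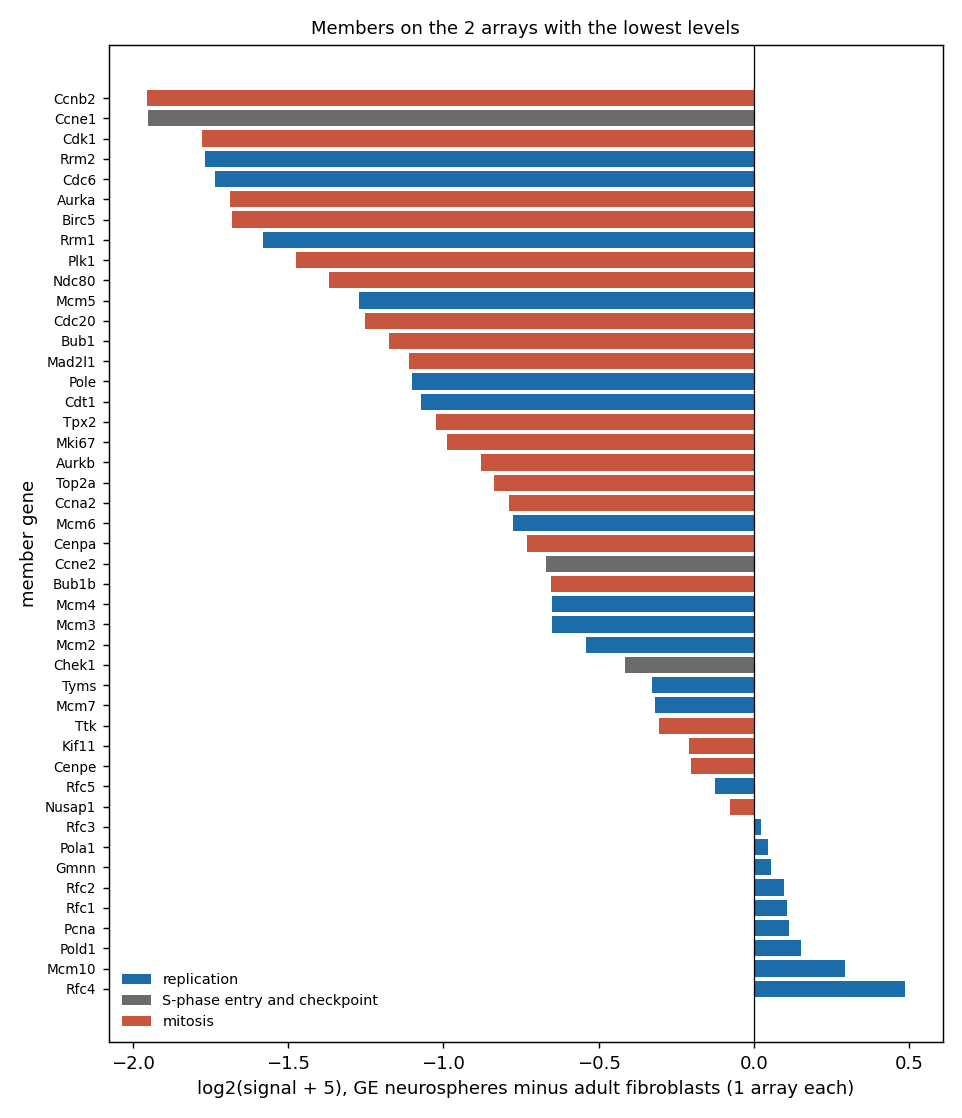
Difference in log2(signal + 5) of each member, GE neurospheres minus adult fibroblasts (1 array each, bars coloured by class). Every mitosis bar points to lower values in GE neurospheres, from -0.08 for Nusap1 to -1.96 for Ccnb2, while 9 replication bars point the other way.

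Set against pluripotent cells, fibroblast-derived neurospheres had less of most members. Of 45 members 35 fell and none rose, where 30.2% of all genes were called and 9.77% fell. The median difference was -1.05 for replication and -1.13 for mitosis members, against 0.16 for all genes. Bub1b, the checkpoint kinase BubR1, read 253 and 183 in adult-derived and 201 and 200.1 in embryonic-derived neurospheres, against 913 and 849 in iPS and ES cells. The groups were far apart, with a difference of -2.06 (SE 0.27, limma adjusted p = 0.00126). Mcm3 read 796 and 760.5 in adult-derived and 737 and 639 in embryonic-derived neurospheres, against 2551 and 2128 in iPS and ES cells. No value overlapped, and the difference was -1.67 (SE 0.28, limma adjusted p = 0.00394). Rfc5 fell by 1.70 (SE 0.37, limma adjusted p = 0.011) and Aurka, the centrosomal Aurora kinase, by 1.52 (SE 0.32, limma adjusted p = 0.00974).

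Ccne1, the E1 cyclin of S-phase entry, had the lowest difference from pluripotent cells among the members. It read 219 and 207 in adult-derived and 147 and 201 in embryonic-derived neurospheres, against 729.8 and 1269 in iPS and ES cells. The 4 arrays lay well below both, a difference of -2.30 (SE 0.43, limma adjusted p = 0.0058). Fibroblasts had 131 and GE neurospheres 30.2, and against fibroblasts the fibroblast-derived difference was 0.53 (SE 0.55, limma adjusted p = 0.526). Ccne2, the other E cyclin, did not share this pattern. It read 189.8, 133, 84.5 and 67.5 on fibroblast-derived arrays 1 to 4 and 72.6 and 131 in iPS and ES cells. Those ranges overlapped, and the difference was 0.16 (SE 0.30, limma adjusted p = 0.713). Chek1, the checkpoint kinase, followed the common pattern, with 225, 195, 202 and 226 on fibroblast-derived arrays 1 to 4, against 507 and 415 in iPS and ES cells (difference -1.10, SE 0.27, limma adjusted p = 0.0178).

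Mki67 was not called, and its values overlapped: 1085 and 717 in adult-derived and 553 and 449 in embryonic-derived neurospheres, against 1233 and 743 in iPS and ES cells (limma adjusted p = 0.159). The others not called were Pole, Pold1, Rrm1, Tyms, Ccne2, Mad2l1, Aurkb, Ccna2 and Kif11. The count of 35 was lower with any array of either side left out, in fits that also have fewer residual degrees of freedom. It was 12 without the ES array, 22 without the iPS array, 22 and 21 without embryonic-derived replicates 3 and 4, 23 without adult-derived replicate 2 and 27 without adult-derived replicate 1. On other probe sets Bub1, Cenpa, Nusap1 and Tpx2 had the opposite sign in this comparison. For Bub1 that probe set was itself called, at 1.18 (limma adjusted p = 0.0191) beside -1.12 on the brightest.

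**Figure D5:**
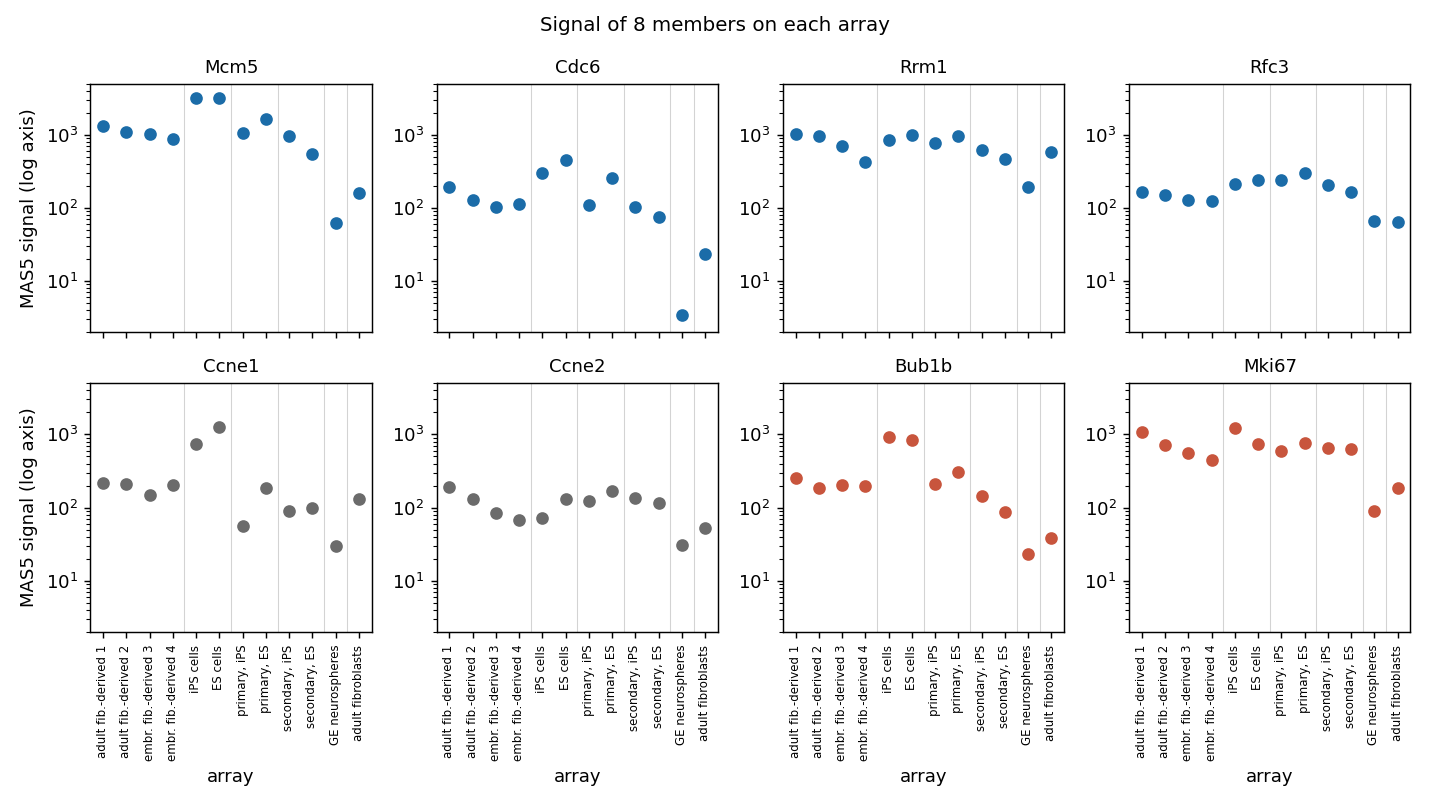
Signal of 8 members on each of the 12 arrays (log axis, points are single arrays, grey lines part the groups). Mcm5, Cdc6, Ccne1 and Bub1b are highest in iPS and ES cells, whereas Rrm1, Rfc3 and Ccne2 span a narrower range and have their highest signal on other arrays.

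Set against primary neurospheres, 1 of 45 members was called in fibroblast-derived neurospheres, lower, where 29.9% of all genes were called and 14.3% fell. That member was Rfc3, which read 166, 152, 128.5 and 123 on fibroblast-derived arrays 1 to 4, against 243 and 299 in iPS- and ES-derived primary neurospheres. It fell by 0.91 (SE 0.20, limma adjusted p = 0.0104). Rfc3 was also the only member with its highest signal on a primary array. The 2 primary arrays were far apart, at centred member means of 0.18 and 0.98. Without the ES-derived array 7 members were called higher in fibroblast-derived neurospheres, and without the iPS-derived array 4 were called lower. The shares of all genes called in those fits are not given here, so their counts are not read as results about the members. A difference that is not called here does not show equal levels.

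Against secondary neurospheres 12 of 45 members rose in fibroblast-derived neurospheres and none fell, where 33.6% of all genes were called and 17.0% rose. The median difference of the members was 0.55, against 0.05 for all genes. The 12 were Mcm7, Mcm10, Cdt1, Gmnn, Rfc5, Pole, Pold1, Bub1, Bub1b, Mad2l1, Ccnb2 and Cenpa. Mcm10, a replication initiation factor, differed most, with 183, 188, 169 and 173.5 on fibroblast-derived arrays 1 to 4, against 75.6 and 55.7 on the iPS- and ES-derived secondary arrays. Its difference was 1.39 (SE 0.40, limma adjusted p = 0.0274), although another Mcm10 probe set was at -0.16, and the call was lost in 9 of 19 other settings (limma adjusted p of up to 0.163). The count was 0 without the ES-derived secondary array or without embryonic-derived replicate 3, 1 without embryonic-derived replicate 4, 3 without either adult-derived replicate and 10 without the iPS-derived secondary array.

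The path from pluripotent cells through primary to secondary neurospheres followed each line. Mcm5 read 3170.0 and 3135 in iPS and ES cells, 1059 and 1618 in their primary and 956 and 544 in their secondary neurospheres. Cdc20, the activator of mitotic exit, read 4127 and 3579 in iPS and ES cells, 1133 and 2025 in primary and 1278 and 762 in secondary neurospheres. Both lines had their highest value at the pluripotent stage. In primary neurospheres 28 of 45 members fell and none rose against pluripotent cells, where 30.1% of all genes were called and 10.8% fell. Among the 28, Nusap1 had the opposite sign on another probe set. Ccne1 fell by 3.17 (SE 0.49, limma adjusted p = 0.00263), Rfc5 by 1.93 (SE 0.43, limma adjusted p = 0.0115) and Bub1b by 1.79 (SE 0.31, limma adjusted p = 0.00397). The count was 5 without the iPS-derived primary array, 9 without the ES cells, 12 without the iPS cells and 36 without the ES-derived primary array.

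In secondary against primary neurospheres the fitted difference of all 45 members was below 0, with a median difference of -0.59 against -0.01 for all genes. By limma 0 members were called after adjustment, where 2.78% of all genes were. An unadjusted limma p under 0.05 was reached by 16 of 45 members and by 2781 of all 13650 genes. Bub1b had a difference of -1.11 (SE 0.31, limma adjusted p = 0.0911) and Mki67 of -0.05 (SE 0.30, limma adjusted p = 0.956), which turned to 0.01 under quantile normalization. The lines differed in this step, with 1 array each and no test. In the ES line 44 of 45 members were lower in secondary than in primary neurospheres, with a median difference of -1.27 against -0.01 for all genes. In the iPS line 22 were lower and 23 higher, with a median of 0.00 against 0.03 for all genes. Of all 13650 genes 6435 were lower and 7165 higher in that line, and 14 of the 20 mitosis members were higher. The centred member mean was 0.19 in secondary against 0.18 in primary neurospheres of the iPS line, and -0.20 against 0.98 in those of the ES line. Cdk1 read 726 in secondary against 440.6 in primary neurospheres of the iPS line, and 487 against 854.5 in those of the ES line. Without the iPS-derived primary array 6 members were called lower. Scaling every array to a common median called 9 members lower, and that scaling moved the median of all genes by -0.31.

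The lines parted at the primary stage. ES-derived primary neurospheres had the higher signal in 44 of 45 members, the exception being Tyms, and the median difference, iPS minus ES, was -0.84, against -0.07 for all genes. Mcm10 read 79 in iPS-derived against 253 in ES-derived primary neurospheres, and Ttk, a checkpoint kinase, 138 against 360. In secondary neurospheres the order was turned, with the iPS-derived array higher in 40 of 45 members and a median of 0.37, against -0.02 for all genes. In the pluripotent cells 24 members were higher in iPS and 21 in ES cells, where 7899 of all 13650 genes were higher in iPS and 5690 in ES cells. Pluripotency markers summed to 243 in iPS-derived and 8890.3 in ES-derived primary neurospheres, where Pou5f1, which encodes Oct4, read 9.6 and 1174. Neuron markers summed to 14968 in iPS-derived and 6076 in ES-derived primary neurospheres. In secondary neurospheres fibroblast markers summed to 1908 on the iPS-derived and 10252 on the ES-derived array. The part of these cells in the line differences was not tested, and with 1 array of each line a stage has no replicate check.

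Adult-derived neurospheres were set against embryonic-derived ones to compare the sources. Of 45 members 0 were called by limma, where 0.469% of all genes were. An unadjusted limma p under 0.05 was reached by 5 of 45 members and by 1603 of all 13650 genes. In 38 of 45 members the adult-derived mean was higher, with a median difference of 0.22 against 0.00 for all genes. In 29 of 45 both adult-derived arrays were above both embryonic-derived ones, which held for 27.8% of all genes. Rrm1 had 1017 and 952 in adult-derived against 704 and 419.7 in embryonic-derived neurospheres, a difference of 0.85 (SE 0.27, limma adjusted p = 0.265), and Mki67 had a difference of 0.82 (SE 0.30, limma adjusted p = 0.348). With LIF alone, adult-derived replicate 2 had a centred member mean of 0.61 and embryonic-derived replicate 3 of 0.44, with 1 array each and no test. The other array of each pair had another medium.

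Pluripotent cells against adult fibroblasts gave the highest member median of the 10 comparisons. There 42 of 45 members rose and none fell, where 39.1% of all genes were called and 19.5% rose. Among the 42, Tpx2 had the opposite sign on another probe set. The median difference was 3.08 for replication and 2.78 for mitosis members. Bub1b read 913 and 849 in iPS and ES cells, against 38.9 in fibroblasts, a difference of 4.33 (SE 0.38, limma adjusted p = 0.000278). Mcm5 differed by 4.27 (SE 0.37, limma adjusted p = 0.00027) and Pcna, the sliding clamp, by 2.39 (SE 0.25, limma adjusted p = 0.000467). Pcna read 4289.7 and 4329 in iPS and ES cells, against 818.7 in fibroblasts, its lowest value. Not called were Rrm1, Tyms and Ccne2.

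By role, the 6 subunits of the helicase moved one way in fibroblast-derived neurospheres. Mcm2 to Mcm7 were all called higher than in adult fibroblasts, by 1.85 (Mcm6) to 2.71 (Mcm5), and all lower than in pluripotent cells, at -0.85 (Mcm7) to -1.67 (Mcm3). Cdt1, which loads the helicase together with Cdc6, read 1051.5 and 916 in adult-derived and 1017 and 924 in embryonic-derived neurospheres, 3450 and 2723 in iPS and ES cells, 80.9 in GE neurospheres and 176 in fibroblasts. Its 4 fibroblast-derived values lay within a narrow band between the pluripotent and the fibroblast values. The difference was 2.44 (SE 0.39, limma adjusted p = 0.00417) against fibroblasts and -1.65 (SE 0.30, limma adjusted p = 0.00562) against pluripotent cells.

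The polymerases were less even. Pole, the catalytic subunit of the leading strand polymerase, read 232, 206.5, 215 and 200.1 on fibroblast-derived arrays 1 to 4, 447 and 355 in iPS and ES cells, 14.9 in GE neurospheres and 37.7 in fibroblasts. Pold1, that of polymerase delta, read 258, 221.5, 246 and 287 on fibroblast-derived arrays 1 to 4, 413 and 357.5 in iPS and ES cells, 58.5 in GE neurospheres and 52.2 in fibroblasts. Both were called higher in fibroblast-derived than in secondary neurospheres. The Pole call was lost in 11 of 19 other settings and the Pold1 call in 7, with limma adjusted p of up to 0.334 and 0.153. Neither was called against pluripotent cells. Rrm2, the small subunit of ribonucleotide reductase, read 2379.7 and 2179 in adult-derived and 1502 and 1282 in embryonic-derived neurospheres, 3739 and 2628 in iPS and ES cells, 235.5 in GE neurospheres and 813 in fibroblasts.

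Among the mitotic kinases Plk1, which acts from entry to exit, read 365 and 311 in adult-derived and 222 and 194 in embryonic-derived neurospheres, 613 and 694 in iPS and ES cells, 30.4 in GE neurospheres and 93.5 in fibroblasts. It differed by 1.45 (SE 0.37, limma adjusted p = 0.023) from fibroblasts and by -1.29 (SE 0.28, limma adjusted p = 0.0118) from pluripotent cells. Aurkb, the kinase of the chromosomal passenger complex, read 295.5, 242, 197 and 193 on fibroblast-derived arrays 1 to 4, 462.5 and 283 in iPS and ES cells, 26.6 in GE neurospheres and 53.1 in fibroblasts. The highest adult-derived value exceeded that of the ES cells, so these groups overlapped. Kif11, the motor that parts the spindle poles, read 346, 304.5, 289 and 300.5 on fibroblast-derived arrays 1 to 4 and 570 and 559 in iPS and ES cells. Those values did not overlap, yet the difference of -0.86 (SE 0.31) missed the threshold (limma adjusted p = 0.0694). Ndc80, the kinetochore protein that grips microtubules, read 92, 85.9, 61.9 and 61.7 on fibroblast-derived arrays 1 to 4, against 35.5 in fibroblasts, and missed the threshold at 0.97 (SE 0.35, limma adjusted p = 0.0758).

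The members differed in how far they ranged. Cdc6 spanned 3.5 to 449.7, and Mcm5 was 50.6 times as high on its highest as on its lowest array. Rfc2 ranged over 2.50 times, Rfc3 over 4.61, Pcna over 5.29, Rrm1 over 5.33 and Rfc1 over 5.49 times. Within the clamp loader, Rfc5 ranged over 21.0 times and Rfc4 over 10.1, so its 5 subunits differed in range. Among mitosis members the lowest ranges were those of Cenpe (9.23 times) and Tpx2 (9.23 times), and the highest that of Bub1 (42.2 times). Levels of different probe sets cannot be compared, and these ratios are between arrays within a probe set.

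Other genes of the same machinery, listed by their role, were counted in the same fits. In fibroblast-derived neurospheres 23 of 36 other replication genes rose against adult fibroblasts and 0 fell, where 15.0% of all genes rose and 8.21% fell. Among the 23 were Gins1 (2.69, SE 0.32) and the DNA ligase Lig1 (2.64, SE 0.35). Of 42 other mitosis genes 25 rose, with Ncaph of the condensin complex at 2.73 (SE 0.33), and 1 fell. The one that fell was Zwint, a kinetochore protein, at -1.14 (SE 0.32, limma adjusted p = 0.0326). Zwint was also lower in fibroblast-derived neurospheres against GE (-1.03), primary (-1.24) and secondary neurospheres (-1.60), each called. Its low level was shared with pluripotent cells. It read 317.9, 444.4, 337.1 and 404 on fibroblast-derived arrays 1 to 4 and 342.8 and 361.6 in iPS and ES cells. In pluripotent cells Zwint was likewise called lower than in adult fibroblasts, at -1.22 (SE 0.35, limma adjusted p = 0.0223). Against GE neurospheres 38 of 42 other mitosis genes rose in fibroblast-derived neurospheres, and 18 of 36 other replication genes did, where 15.6% of all genes rose. In secondary against GE neurospheres these counts were 25 of 42 and 6 of 36, where 2.40% of all genes rose. The difference between the classes was not tested.

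Of 19 transcription factors and cofactors of the cell cycle, Mybl2, which encodes B-Myb, a partner of the MuvB complex, is given on every array. It read 169 and 211 in adult-derived and 421.5 and 618 in embryonic-derived neurospheres, 1049 and 909.9 in iPS and ES cells, 30.3 and 237 in their primary and 29.0 and 27.5 in their secondary neurospheres. GE neurospheres had 9.8 and adult fibroblasts 13.7. Mybl2 was highest in the pluripotent cells and low on the iPS-derived primary and both secondary arrays. It was higher in fibroblast-derived than in secondary neurospheres by 3.25 (SE 0.62, limma adjusted p = 0.00506). Rb1, the retinoblastoma protein that holds E2F in check, went the other way from the members against pluripotent cells, being higher in fibroblast-derived neurospheres by 1.82 (SE 0.22, limma adjusted p = 0.000931). Against adult fibroblasts Rb1 went the same way as most members, being higher by 2.12 (SE 0.28, limma adjusted p = 0.00223). E2f6, a repressor of the family, was higher in fibroblast-derived neurospheres than in pluripotent cells by 0.92 (SE 0.19, limma adjusted p = 0.00914). It differed from adult fibroblasts by -0.92 (SE 0.25, limma adjusted p = 0.0291). E2f8 was lower in fibroblast-derived neurospheres than in pluripotent cells, like most members, at -0.98 (SE 0.25, limma adjusted p = 0.0198). E2f7 was lower as well, at -1.19 (SE 0.32, limma adjusted p = 0.0230). Against pluripotent cells 3 of the 19 rose and 2 fell, where 20.4% of all genes rose and 9.77% fell. Against secondary neurospheres, 4 of the 19 rose and 2 fell, where 17.0% of all genes rose and 16.7% fell.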

How the data were processed

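The arrays are Affymetrix chips with 45101 probe sets, hybridised with RNA of 12 mouse cultures. The submitters' processing notes name MAS5 and, as software, Affymetrix Expression Console 1.1, and the deposited signal intensity is linear. On each array the trimmed mean (2% off each end) of these values was 100, so they carry no information on total RNA. Signals were raised by 5 and put on the log2 scale. Probe sets that never reached 20 were left out. Each gene was then taken from the brightest probe set that names it alone, giving 13650 genes, and the 932 probe sets that name several genes were not used.

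A linear model of all 12 arrays with a mean for each group was fitted in limma 3.58.1 (R 4.3.3) by lmFit, followed by eBayes with trend. It left 5 residual degrees of freedom, to which the prior added 3.63. The mean of the adult-derived and that of the embryonic-derived pair had equal weight. Tests were 2-sided, and a gene was called where p, adjusted by Benjamini-Hochberg over the 13650 genes, was under 0.05. The code was tested on simulated data. The number of arrays limits the precision. Same-numbered iPS and ES arrays share a line, and so are paired by it. Their deviations from group means correlated at 0.25 (pluripotent with primary), 0.0578 (pluripotent with secondary) and 0.43 (primary with secondary).

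Members and lists were chosen with earlier results of these data known. The rule for fitted values took the called members with the 2 highest and 2 lowest differences of each class, a fixed set (Mcm5, Pcna, Gmnn, Ccne1, Chek1, Top2a, Ccnb1, Mki67), and, of each other list, the called genes with the 2 smallest adjusted p in each direction. The differences given outside this rule, such as those of Rrm1, Cdk1 and Ccne2, were chosen after their values were seen. Recalculations used quantile normalization, scaling to a common median, pseudocounts of 1 and 20, no filter or one at 100, averaged probe sets, each probe set by itself, no trend, the line as a block, only the groups in question, either fibroblast-derived pair, and each array left out.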

Additional observations from a re-analysis of the deposited data

Results flagged for a closer look

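Among the 4 fibroblast-derived arrays, 3 of 45 members had 1 array far from the others by the gap to its neighbour over the range, a rule that chance meets in about 1 of 20 groups. Bub1 read 638.8 on embryonic-derived replicate 3, while the other 3 arrays read 462.4 to 487.3. Mad2l1 read 644.1 on embryonic-derived replicate 4, against 870.8 to 907.7 on the others. Nusap1 read 655.9 on adult-derived replicate 1, against 566 to 580.6 on the others.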

How the results depend on the processing

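With the iPS or ES line as a replicate block, which pairs arrays by line, the members called were 39, 43, 35, 1 and 11 for fibroblast-derived neurospheres against fibroblasts, GE, pluripotent, primary and secondary cells, and 29, 0, 35, 42 and 0 in the other comparisons, so no count moved by over 1.5 times. Of 162 recomputed counts 135 stayed within 1.5 times of the reported one, 20 were lower and 7 higher. With the adult-derived pair alone the counts were 20 against pluripotent, 0 against primary and 5 against secondary cells, and with the embryonic-derived pair alone 3 against secondary. Fits of the groups compared alone gave 19 against secondary, 4 for primary against pluripotent and 0 for secondary against GE cells. A common median gave 3 for fibroblast-derived against primary and 9 for secondary against primary cells, where quantile normalization gave 1. With each array left out in turn, the counts ranged from 31 to 35 (fibroblasts), 42 to 43 (GE), 12 to 27 (pluripotent), 1 to 7 (primary) and 0 to 10 (secondary) for fibroblast-derived neurospheres. They ranged from 5 to 36 for primary against pluripotent, 0 to 6 for secondary against primary, 10 to 23 for secondary against GE, 42 to 43 for pluripotent against fibroblasts and were 0 for adult-derived against embryonic-derived cells. Each fit without an array also has fewer residual degrees of freedom, and its share of all genes called is not given here. The cause of the changes in these counts was not tested.

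The gap between the medians of mitosis and replication members moved by more than 0.0498 in 53 of 162 cases. That yardstick is the pooled SD of the gap between class means on single arrays, not an SD of the median gap. For fibroblast-derived neurospheres against fibroblasts it was -0.0663 (quantile), -0.0638 (pseudocount 20), -0.29 (filter at 100), -0.0251 (adult-derived pair) and -0.0224 (means over members), and -0.27 to -0.15 with each array left out. Against GE it was 0.36 and 0.23 (pseudocounts 1 and 20), 0.46 and 0.20 (adult- and embryonic-derived pairs), 0.39 (Ccna2 left out and S-phase genes counted as replication) and 0.51 (means), and 0.24 to 0.46. Against pluripotent cells it was -0.0162 (filter at 100), 0.13 (mean of probe sets) and 0.00102 (embryonic-derived pair), and -0.14 to -0.0240. Against primary it was 0.22 (mean of probe sets), and 0.0461 to 0.18. Against secondary it was -0.19 (adult-derived pair), and -0.26 to -0.0305. For primary against pluripotent it was -0.00746 (quantile) and -0.11 (means), and -0.0921 to 0.13. For secondary against primary it was 0.23 (quantile) and 0.25 (mean of probe sets), and 0.11 to 0.30. For secondary against GE it was 0.70 (pseudocount 20), 0.73 (mean of probe sets), 0.84 (Ccna2 and S-phase genes regrouped) and 0.62 (means), and 0.60 to 1.04. For pluripotent cells against fibroblasts it was -0.25 (pseudocount 20), -0.36 (filter at 100), -0.56 (mean of probe sets), -0.20 (regrouped) and 0.0262 (means), and -0.21 to -0.12. For adult-derived against embryonic-derived it ranged from 0.0278 to 0.16.

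Of 1937 recomputed member differences 1669 kept their sign and their side of the threshold, 225 lost their call, 16 gained one and 27 turned sign. A called one was Cenpa, fibroblast-derived against pluripotent, at 0.32 with the mean of its probe sets. The others were not called. Fibroblast-derived against primary, Mki67 was at 0.0114 (quantile), 0.39 (adult-derived pair) and -0.22 to 0.18 with an array left out. Gmnn was at -0.12 (common median) and -0.45 to 0.61, Chek1 at 0.0263 (mean of probe sets) and -0.46 to 0.42, Top2a at 0.0584 (mean of probe sets) and Mcm5 at -0.60 to 0.00809. Against secondary, Mki67 was at -0.00274 (quantile), -0.38 (embryonic-derived pair) and -0.12 to 0.18, and Pcna at -0.12 (embryonic-derived pair). Secondary against primary, Mki67 was at 0.0142 (quantile) and -0.25 to 0.15, and Ccne1 at -0.94 to 0.70. Adult-derived against embryonic-derived, Chek1 was at 0.0773 (common median) and -0.13 to 0.0751, and Gmnn at -0.10 to 0.15.

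A common median moved the median of all genes by -0.42, -0.35, -0.18 and 0.14 for fibroblast-derived against fibroblasts, pluripotent, primary and secondary cells, by -0.18 for primary against pluripotent, -0.31 for secondary against primary and -0.18 for secondary against GE cells. Under the common median, the share of all calls that was higher was 35.1% in place of 64.7% (fibroblasts), 38.6% in place of 67.6% (pluripotent), 41.4% in place of 52.3% (primary), 60.7% in place of 50.4% (secondary), 48.6% in place of 64.1% (primary against pluripotent), 29.1% in place of 71.6% (secondary against primary) and 47.9% in place of 61.6% (secondary against GE). Quantile normalization moved the median of all genes by -0.14 and -0.16 for fibroblast-derived against fibroblasts and pluripotent cells. The members' median kept its sign under each scaling. Groups of 1 or 2 arrays limit every comparison, and dim probe sets such as those of Tyms and of Cdc6 in GE neurospheres lie near background.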
